A study of Homo sapiens with 13 samples.

Results

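The messenger RNA of 38 genes of the heart muscle sarcomere, of heart ion channels and calcium handling, and of the heart lineage was followed in AC16 cells. AC16, an established human line, arose from the fusion of ventricular cardiomyocytes of an adult with transformed fibroblasts, and the labels call its cell type myocyte. The genes came from a list of symbols, and all 38 were found among the 63241 genes counted in each library. The list comprised 13 sarcomere genes, 8 genes of calcium handling, channels and junctions, 2 natriuretic peptides, 10 lineage transcription factors and 5 genes of the Z-disc and of muscle metabolism.

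The 13 libraries fell into 4 groups, all labelled wildtype. Control, FCCP and preconditioning+FCCP had 3 libraries each, and preconditioning had 4. FCCP is a protonophore that collapses the proton gradient of mitochondria. Preconditioning was optogenetic, through a mitochondrial construct named mOpto, and it is not stated whether the control and FCCP groups had the construct or were illuminated. Doses and times are not stated, nor whether the libraries of a group are separate cultures. The p-values therefore reflect only how far these libraries spread, which may be technical. Gene counts ran from 14970803 to 20636229 per library.

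Heart muscle contracts when calcium enters through the L-type channel, releases more calcium from the sarcoplasmic reticulum through the ryanodine receptor, and lets myosin pull on actin in the sarcomere. The SERCA2 pump and the sodium-calcium exchanger then clear the calcium, and gap junctions of connexin pass the electrical signal from cell to cell. The factors NKX2-5, GATA4, TBX5, HAND2 and MEF2C act together in the embryo to set up the heart lineage and to switch on sarcomere genes. Fibroblasts and smooth muscle also use some of these genes, among them the pump, connexin 43, GATA6 and the MEF2 factors.

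Of the 38 genes, 14 reached 1 CPM (CPM, counts of the gene per 1000000 gene counts of the library, scaled by TMM, a normalisation for library composition) in 3 or more libraries, and 24 did not. Over the whole genome 15134 genes reached that level. The 14 comprised 3 of 13 sarcomere genes (TTN, ACTN2 and TNNI3), 4 of 8 genes of calcium and channels (ATP2A2, GJA1, SLC8A1 and CACNA1C), 6 of 10 lineage factors (GATA4, GATA6, HAND2, MEF2A, MEF2C and MEF2D) and CKMT2. Neither natriuretic peptide gene reached it. In all 13 libraries, 9 genes were at or above 1 CPM, and TTN was the only sarcomere gene among them. Just inside the line stood TNNI3, at 1 CPM in 3 libraries with a highest value of 1.35 CPM, and just outside it stood MYL4, at 1 CPM in 2 libraries with a highest value of 2.08 CPM.

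Most genes that define a working heart muscle cell were at or near 0. TNNT2, cardiac troponin T, had 0 counts among the 223769177 gene counts of the 13 libraries, which allows a level of up to 0.0134 CPM by counting error alone. MYH6 and MYH7, the alpha and beta myosin heavy chains, had 3 and 4 counts, each in a single library. MYBPC3, the cardiac myosin binding protein C, had 2 counts, as did MYL2, the regulatory light chain of the ventricle, while MYL7, that of the atrium, had 3. PLN, the phospholamban that restrains the calcium pump, had 5 counts, and the potassium channels KCNQ1 and KCNH2 had 3 and 6. The lineage factors NKX2-5 and TBX5 had 6 counts each, as did MB, which encodes myoglobin. Together, 13 of the 38 genes had 6 or fewer counts over all libraries.

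The genes between these and the 1 CPM line were low in every library. MYL3, TNNC1, RYR2, NPPA, TBX20, HAND1 and LDB3 had 31 to 61 counts in total and at most 0.896 CPM in any library. RYR2, the calcium release channel, peaked at 0.454 CPM. The 13 libraries thus held the pump, the exchanger and the L-type channel of the calcium cycle, with the release channel and phospholamban far below them on the CPM scale, which does not correct for gene length.

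**Figure D1:**
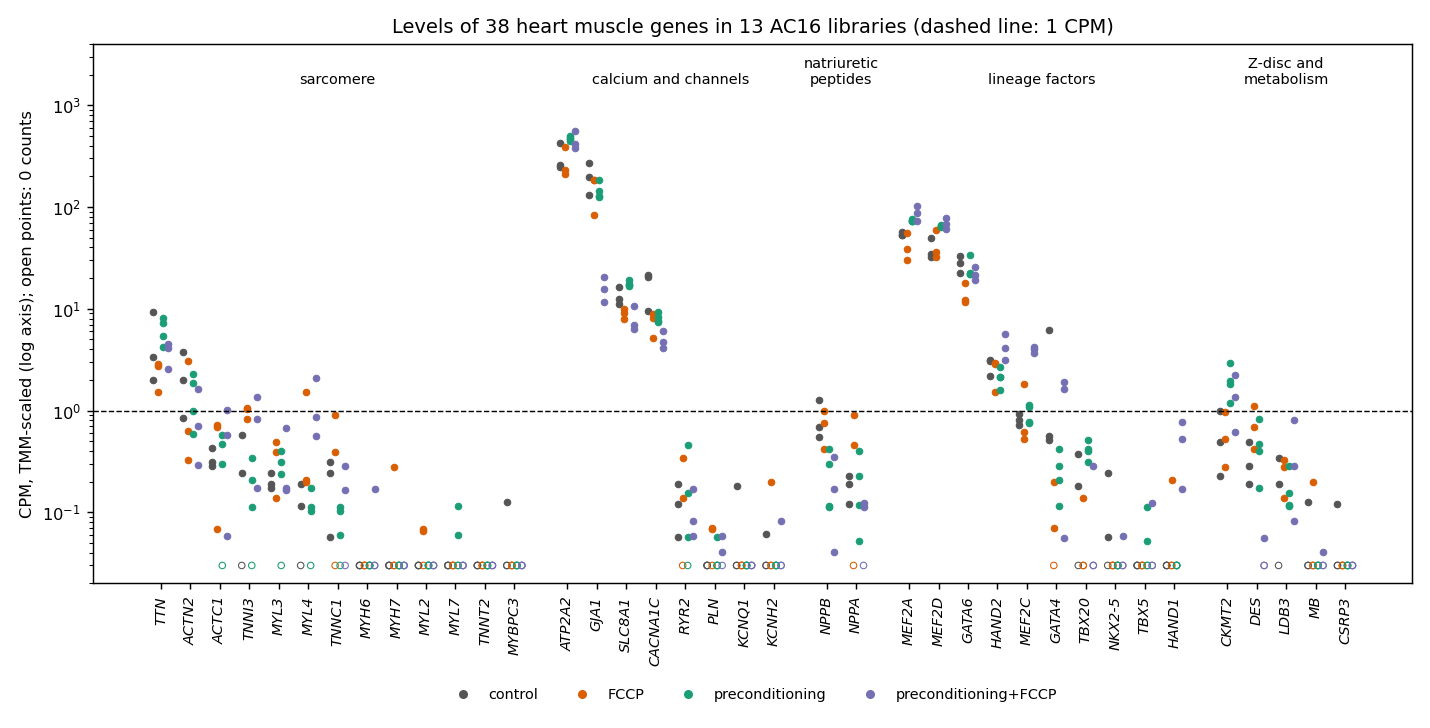
Levels of the 38 genes (CPM, log axis) in the 13 libraries, grouped by role, with 1 point per library coloured by treatment group and open points at the foot for libraries with 0 counts. The dashed line is 1 CPM, and 9 genes lie above it in all 13 libraries.

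CPM divided by the length of a gene's exons allow levels to be compared between genes. On this scale GJA1, connexin 43 of gap junctions, had a median over libraries of 38.2 CPM per kilobase. Of the tested genes with a known exon length, 93.02% were lower. ATP2A2, the SERCA2 pump, stood at 30.6, above 90.88% of those genes. MEF2A and MEF2D, MADS-box factors of muscle and other tissues, stood at 10.5 and 9.50, and GATA6, a zinc finger factor, at 5.63. HAND2 at 0.804, NPPB at 0.598, SLC8A1 at 0.512 and CACNA1C at 0.427 came next. TTN, whose exons are very long, fell to 0.0345 CPM per kilobase, below nearly all tested genes with a known exon length. The orders of GJA1 with ATP2A2 and of MEF2A with MEF2D were not tested, and their ranges over libraries overlap.

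The promoters of 4 genes are shown to set expressed beside silent members, and each was picked from windows that hold a searched motif. GJA1 and MEF2A were high per length and changed, TTN was low but present in every library, and TNNT2 had no counts. Each run is the 250 bases before a RefSeq transcript start (GRCh38.p14), with searched motifs in capitals on either strand. The intervals are chr6:121435396-121435645 on the plus strand for GJA1, chr15:99565734-99565983 on the plus strand for MEF2A, chr2:178807424-178807673 on the minus strand for TTN and chr1:201377681-201377930 on the minus strand for TNNT2.
GJA1: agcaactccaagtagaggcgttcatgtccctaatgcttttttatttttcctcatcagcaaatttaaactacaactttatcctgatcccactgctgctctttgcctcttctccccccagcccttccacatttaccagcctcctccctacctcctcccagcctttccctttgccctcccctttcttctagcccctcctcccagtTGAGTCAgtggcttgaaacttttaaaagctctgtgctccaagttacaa
MEF2A: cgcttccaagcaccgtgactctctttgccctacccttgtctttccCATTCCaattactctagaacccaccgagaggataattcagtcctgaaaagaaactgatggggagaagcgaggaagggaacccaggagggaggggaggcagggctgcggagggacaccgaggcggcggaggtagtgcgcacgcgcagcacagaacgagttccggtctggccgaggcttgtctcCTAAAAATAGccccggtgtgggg
TTN: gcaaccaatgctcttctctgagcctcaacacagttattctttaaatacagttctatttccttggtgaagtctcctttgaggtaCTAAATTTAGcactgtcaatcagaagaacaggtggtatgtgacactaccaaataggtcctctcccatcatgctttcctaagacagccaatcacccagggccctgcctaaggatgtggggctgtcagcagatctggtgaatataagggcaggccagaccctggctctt
TNNT2: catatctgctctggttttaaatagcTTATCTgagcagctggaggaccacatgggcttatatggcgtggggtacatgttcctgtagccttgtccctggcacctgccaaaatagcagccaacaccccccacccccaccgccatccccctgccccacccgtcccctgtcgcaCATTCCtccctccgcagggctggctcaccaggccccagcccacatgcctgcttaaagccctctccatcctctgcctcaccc

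In the GJA1 window the capitals mark an AP-1 site (TGANTCA), a motif found in 6.57% of the 35114 windows of all genes. In MEF2A they mark an M-CAT element (CATTCC, in 11.9% of windows), the site of TEAD factors, and a MEF2 site (in 0.515%). MEF2A has further windows, and the one printed was picked for its MEF2 site, so that match was fixed beforehand. The TTN window holds a MEF2 site, and the TNNT2 window a GATA site (AGATAA on the other strand, in 9.17%) and an M-CAT element. Windows were available for 28 of the 38 genes, 50 windows in all. Over those 50, 3 held a MEF2 site, 6 a GATA site, 7 an M-CAT element and 5 an AP-1 site. Further searches found TATAAA in 6 windows (10.7% of all), the NKX2-5 motif TNAAGTG in 1 (8.73%), a CArG box in 4 (1.16%) and the T-box motif AGGTGTGA in none (0.786%). The AP-1 windows came from 4 genes and the CArG windows from 3. Overlapping LDB3 windows hold the same AP-1 site and CArG box, counted once per window. A match is a run of letters and not a measured binding site.

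Of the 38 genes, 18 passed the filter on low counts and were tested, the 14 above and MYL4, ACTC1, NPPB and DES. Tests were edgeR quasi-likelihood tests in 1 fit of all libraries, with Benjamini-Hochberg adjustment over 16756 genes, and called genes are those with an adjusted p under 0.05. At least 1 comparison called 14 of the 18. The FCCP against control comparison called 2 of 18 genes, both lower, where 3.52% of all genes tested were called and 1.92% were called lower. No gene was called higher, where 1.6% of all genes were. At an unadjusted p under 0.05 by edgeR 1 was higher, and DESeq2 and limma-voom called 0 higher. The preconditioning against control comparison called 4 of 18, 2 higher and 2 lower, beside 23.6% of all genes (10.5% higher and 13% lower).

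The preconditioning+FCCP against FCCP comparison, which asks what preconditioning did in cells given FCCP, called 9 of 18, 6 higher and 3 lower. Over all genes 35.7% were called, 17.9% higher and 17.7% lower. Against preconditioning alone, preconditioning+FCCP called 6 of 18, 3 in each direction, beside 39.4% of all genes (20.2% higher and 19.2% lower). The interaction, which asks whether the FCCP change differed with preconditioning, called 3 of 18, 1 higher and 2 lower, beside 19% of all genes (9.38% higher and 9.6% lower). Groups did not overlap for 6 of the 18 genes in FCCP against control (19.3% of all genes), 8 in preconditioning against control (36.7%), 8 in preconditioning+FCCP against FCCP (43.2%) and 7 against preconditioning alone (52.7%). The median log2 change of the 18 genes was -0.20 for FCCP, -0.03 for preconditioning, 0.65 for preconditioning+FCCP against FCCP, -0.12 against preconditioning and 0.23 for the interaction. The medians of all genes tested were -0.0369, -0.0212, 0.0087, 0.0215 and 0.0696. These comparisons share libraries, so their results are not independent of each other.

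The libraries also differed in how many of their reads aligned to several places, and this split them in a way that follows the groups in part. The share was 7.1277% or more in control 1 and 2, FCCP 1 to 3 and preconditioning+FCCP 3, and 5.2174% or less in the other 7 libraries. All FCCP libraries thus lay in the higher set and all preconditioning libraries in the lower set, so a comparison within a set holds 1 or 2 libraries of control or of preconditioning+FCCP. Within-set values are given beside the called results and were chosen after the data had been seen. In the higher set the preconditioning+FCCP against FCCP comparison called 0.0168% of all genes, so a lost call there says little.

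**Figure D2:**
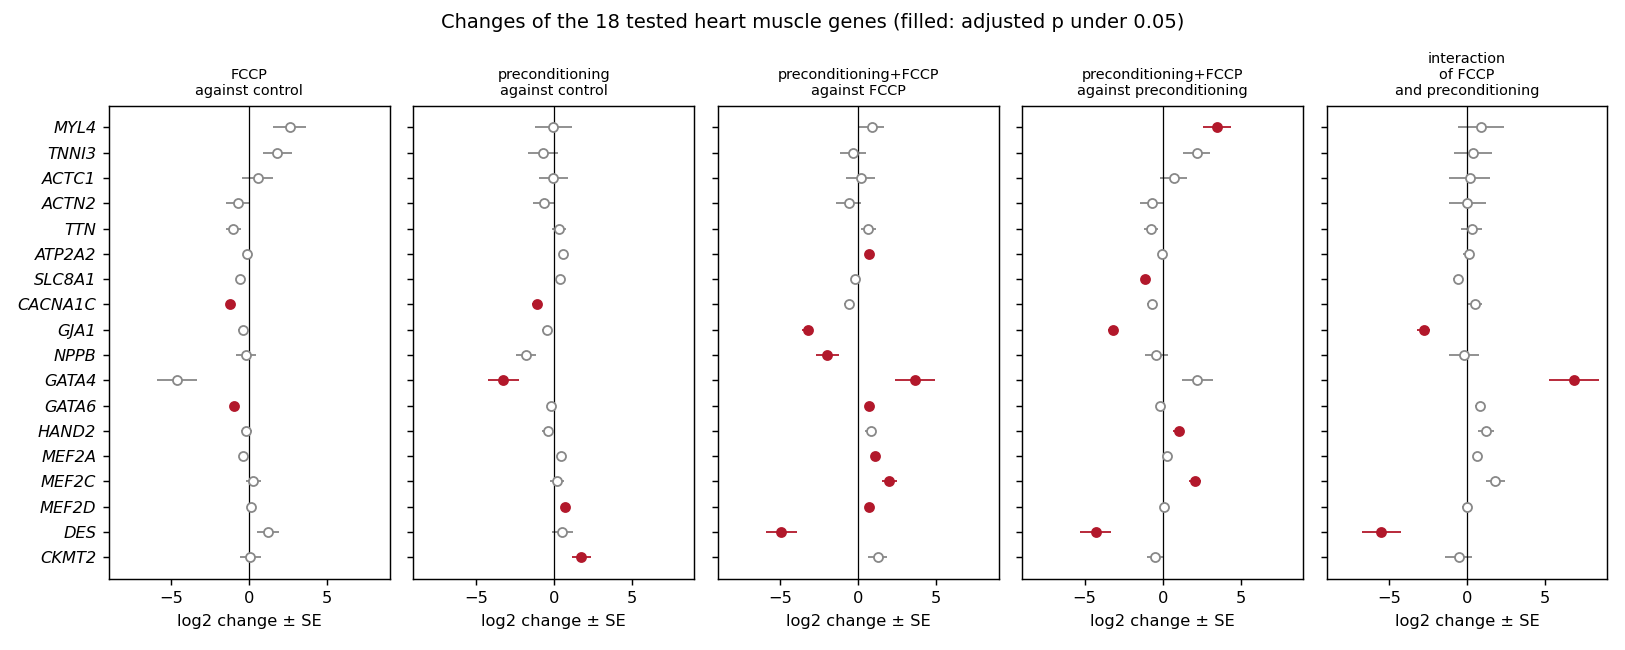
Log2 change ± SE of the 18 tested genes in the 5 contrasts, with filled points for an adjusted p under 0.05. GJA1 and DES lie far to the left in the 3 panels that involve preconditioning+FCCP, and the 5 sarcomere genes, in the top rows, hold 1 filled point.

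Of the 13 sarcomere genes 5 were tested, and MYL4 was the only one called in any comparison by the main edgeR fit of all 13 libraries. In the 4 comparisons other than preconditioning+FCCP against preconditioning, edgeR, DESeq2 and limma-voom each called 0 of these 5, with MYL4 alone at an unadjusted edgeR p under 0.05 (0.0252, for FCCP). MYL4 encodes an essential myosin light chain of the atrium and the embryonic heart. It stood at 2.08, 0.861 and 0.564 CPM with preconditioning+FCCP and at 0.172, 0.114, 0 and 0.104 with preconditioning. Control libraries held 0.115, 0 and 0.187 CPM, and FCCP libraries 1.52, 0.197 and 0.207. The preconditioning+FCCP and preconditioning groups did not overlap, and among the FCCP libraries FCCP 1 stood apart. MYL4 was higher with preconditioning+FCCP than with preconditioning by a log2 change of 3.47 ± 0.90 (SE; edgeR adjusted p 0.00678), and by 3.79 within the lower set. These levels rest on 67 counts against 7. Against FCCP the change of MYL4 was 0.85 ± 0.83 and not called (edgeR adjusted p 0.441), but without FCCP 1 it was 2.48 and called (edgeR adjusted p 0.0484).

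TTN encodes titin, the giant spring of the sarcomere. Its level was 3.32, 2.00 and 9.37 CPM in control, 1.52, 2.76 and 2.90 with FCCP, 8.11, 7.21, 4.20 and 5.40 with preconditioning, and 4.11, 4.51 and 2.54 with preconditioning+FCCP. All 7 libraries of the lower set exceeded all 6 of the higher set, and no comparison called TTN. Its largest fitted change was a log2 value of -1.03 ± 0.49 for FCCP against control, with an edgeR adjusted p of 0.249. Without control 3 the preconditioning change of TTN was 1.22 (edgeR adjusted p 0.0271), where all libraries gave 0.35 ± 0.44.

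ACTN2, the alpha actinin of the Z-disc, was 3.78, 0.849 and 2.00 CPM in control and 0.624, 0.329 and 3.03 with FCCP. It was 2.30, 1.87, 0.591 and 0.986 with preconditioning and 0.289, 0.697 and 1.64 with preconditioning+FCCP. Every pair of groups compared overlapped. No comparison of all libraries called ACTN2, and within the lower set it was called lower with preconditioning+FCCP than with preconditioning (-1.47, edgeR adjusted p 0.0492). ACTC1, cardiac alpha actin, was 0.286, 0.424 and 0.312 CPM in control, 0.693, 0.723 and 0.0689 with FCCP, 0.575, 0, 0.296 and 0.467 with preconditioning, and 0.0578, 0.574 and 1.02 with preconditioning+FCCP. ACTC1 was called in no comparison and reached 1 CPM in 1 library.

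TNNI3, cardiac troponin I, stood at 0.573, 0.243 and 0 CPM in control and at 0.832, 1.05 and 1.03 with FCCP. The preconditioning libraries held 0.345, 0.114, 0 and 0.208 CPM, and the preconditioning+FCCP libraries 0.173, 0.820 and 1.35. All 3 FCCP libraries exceeded all 3 controls. The log2 change of FCCP against control was 1.79 ± 0.92 and was not called (edgeR adjusted p 0.282). Against preconditioning, preconditioning+FCCP gave 2.18 ± 0.87, not called (edgeR adjusted p 0.0585). That change passed with DESeq2 (2.25, adjusted p 0.0385) and without the filter on low counts (2.18, edgeR adjusted p 0.0235). It also passed without control 3 (2.16) and without preconditioning+FCCP 1 (2.62). In GENCODE 29, 24.4% of the exon bases of TNNI3 overlap another gene on the same strand, so its reads and those of its neighbour cannot be fully told apart.

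MYH6 was at 0 in 12 libraries and at 0.169 CPM in preconditioning+FCCP 3, and MYH7 was at 0 in 12 libraries and at 0.276 CPM in FCCP 3. Neither passed the filter on low counts, and TNNT2 was at 0 in all 13 libraries. The counting program sets aside reads that overlap more than 1 gene, 11.0% to 12.4% of reads per library. The sources used here do not name the gene annotation behind the counts. A gene at 0 may thus have lost reads to an overlapping gene model, and this was not tested. In the GENCODE release used for exon lengths, 1.12% of the exon bases of TNNT2 and 2.33% of those of MYH7 overlap another gene. For MYH6 the share is 0%.

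GJA1 showed the clearest group difference of the list. It encodes connexin 43, the main gap junction protein of the working ventricle, which fibroblasts also make. Its level was 199, 268 and 130.3 CPM in control, 82.8, 185 and 182 with FCCP, and 143, 129.6, 185 and 124 with preconditioning. With preconditioning+FCCP it was 15.6, 11.6 and 20.4 CPM, and each of these libraries lay below every library of the other 3 groups. The group means were 199 ± 69.0 (SD, n = 3) in control, 150.2 ± 58.4 (SD, n = 3) with FCCP, 145 ± 27.5 (SD, n = 4) with preconditioning and 15.9 ± 4.44 (SD, n = 3) with preconditioning+FCCP.

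GJA1 fell by 3.24 ± 0.34 on the log2 scale against FCCP (edgeR adjusted p 0.000169). It fell by 3.20 ± 0.33 against preconditioning (edgeR adjusted p 1.18e-05). In the fit of all 13 libraries neither treatment alone changed it past the threshold, with log2 values of -0.41 ± 0.31 for FCCP and -0.45 ± 0.29 for preconditioning. Without control 3, FCCP 1 and preconditioning+FCCP 3 together, GJA1 was called lower with preconditioning than in control (-0.69, edgeR adjusted p 0.00285). The interaction itself was called, at -2.79 ± 0.44 (edgeR adjusted p 0.00107). The calls against FCCP, against preconditioning and for the interaction held without each library in turn. Within the higher set the value against FCCP was -2.87 and not called (edgeR adjusted p 0.0693), and within the lower set the value against preconditioning was -3.43 (edgeR adjusted p 2.02e-07).

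Fibroblast markers as a sum, and most of them singly, moved with GJA1. Of an 18-gene fibroblast list, all at 1 CPM, 12 were lower and 1 (DDR2, a collagen receptor) higher against FCCP. Over all genes 17.7% were lower and 17.9% higher. Against preconditioning 14 of the list were lower and 0 higher, beside 19.2% and 20.2% of all genes. FN1, COL6A1, COL6A3, PDGFRA and TCF21 were not called against FCCP. The summed level was 4375 to 6132 CPM with preconditioning+FCCP. It was 11716 to 12872 with FCCP, 12145 to 13191 with preconditioning and 10404 to 17027 in control. Their part in the fall of GJA1 was not tested. In bulk libraries, fewer cells of a type and less RNA per cell cannot be told apart.

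SLC8A1, the sodium-calcium exchanger of the cell membrane, was lower with preconditioning+FCCP than with preconditioning. It was 19.3, 17.6, 17.1 and 16.8 CPM with preconditioning and 10.6, 6.27 and 7.00 with preconditioning+FCCP. Control libraries held 11.2, 12.6 and 16.5 CPM and FCCP libraries 9.84, 9.07 and 8.00. Preconditioning libraries were the highest of the 13, and FCCP lay below control without overlap. The log2 change against preconditioning was -1.16 ± 0.23 (edgeR adjusted p 0.0012) and -1.08 within the lower set. The change for FCCP against control, -0.58 ± 0.24, was not called (edgeR adjusted p 0.187), and the interaction, -0.57 ± 0.33, was not called either (edgeR adjusted p 0.229).

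CACNA1C, the pore of the L-type calcium channel, was higher in 2 control libraries than anywhere else. It stood at 20.7, 21.5 and 9.43 CPM in control, 5.20, 8.15 and 8.96 with FCCP, 9.31, 7.55, 7.33 and 8.30 with preconditioning, and 6.01, 4.14 and 4.74 with preconditioning+FCCP. The lowest control lay just above the highest library of FCCP and of preconditioning. CACNA1C fell by 1.21 ± 0.31 on the log2 scale with FCCP (edgeR adjusted p 0.0467) and by 1.08 ± 0.29 with preconditioning (edgeR adjusted p 0.0149). Without any 1 of 10 libraries the FCCP call ended, at -1.38 to -1.03. These were control 1 and 2, FCCP 1 to 3, preconditioning 1 to 4 and preconditioning+FCCP 2. The preconditioning call ended without control 1 or control 2, at -0.94 to -0.89, and within the lower set, where control 3 is the only control, the value was -0.21. Between preconditioning+FCCP and preconditioning CACNA1C changed by -0.71 ± 0.30, not called (edgeR adjusted p 0.0691). It was called within the lower set (-0.69, edgeR adjusted p 0.0163), with library set as a term (-0.87, edgeR adjusted p 0.0242), with the 2 groups fitted alone (-0.70), with DESeq2 (-0.70), without control 3 (-0.74), without FCCP 1 (-0.74), and without these 2 and preconditioning+FCCP 3 together (-0.72).

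ATP2A2, the calcium pump of the sarcoplasmic and endoplasmic reticulum, was by CPM the highest of the 38. Its level was 249, 259 and 424 CPM in control, 391, 229 and 212 with FCCP, 495, 467, 479 and 448 with preconditioning, and 558, 420.0 and 383 with preconditioning+FCCP. Preconditioning libraries were the least spread, and all 7 libraries of the lower set exceeded all 6 of the higher set. ATP2A2 was higher with preconditioning+FCCP than with FCCP by 0.71 ± 0.25 on the log2 scale (edgeR adjusted p 0.0397). With library set as a term that value was 0.34 and not called (edgeR adjusted p 0.331). The call also ended, at 0.52 to 0.74, without any 1 of control 2, FCCP 2 or 3, preconditioning 1 to 4, or preconditioning+FCCP 1 or 2. Preconditioning against control, 0.60 ± 0.24, was not called (edgeR adjusted p 0.0789), and was under several alternatives, among them without control 3 (0.89) or FCCP 1 (0.60) and with limma-voom (0.65).

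**Figure D3:**
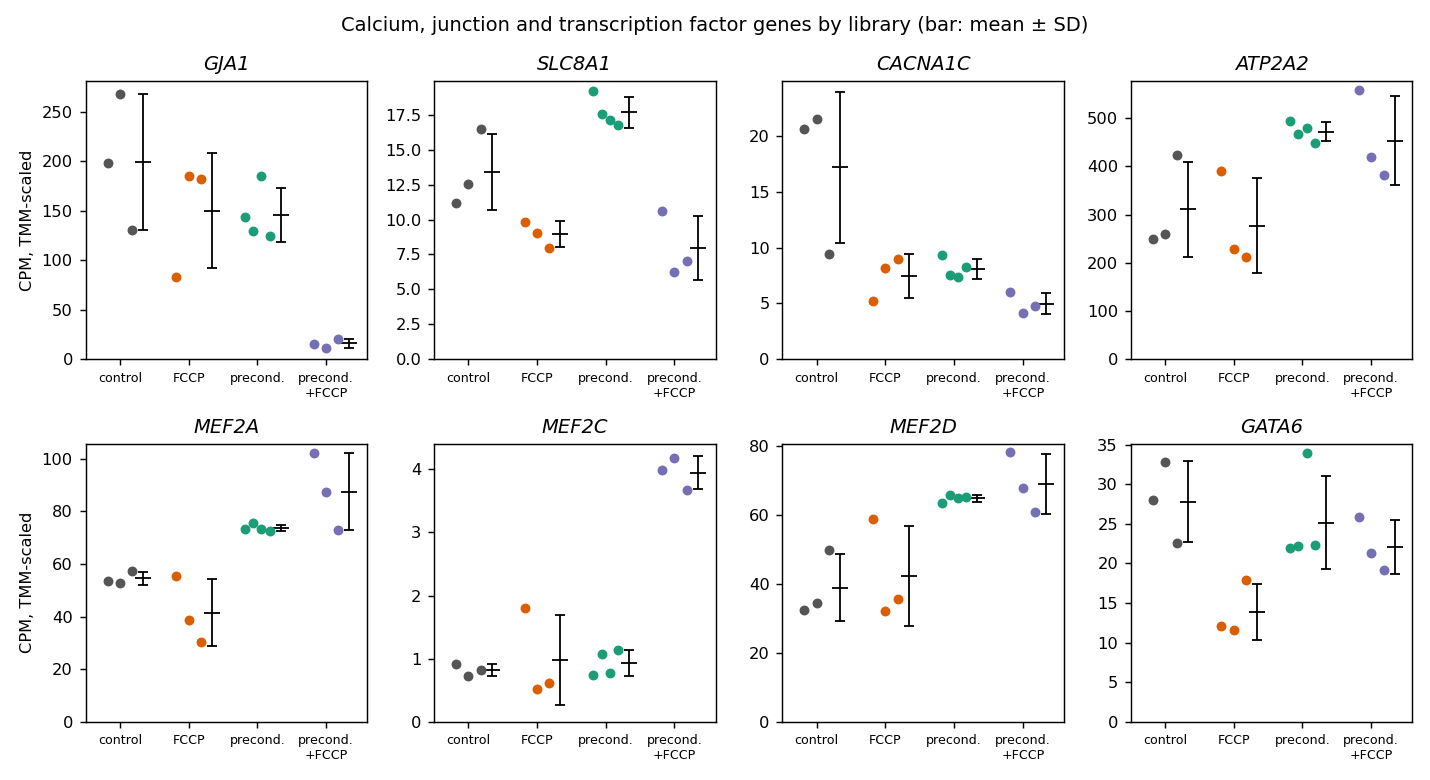
Levels (CPM, linear axes from 0) of 4 genes of calcium handling and junctions and 4 transcription factors, with 1 point per library and mean ± SD beside each group. The 3 preconditioning+FCCP libraries sit at 11.6 to 20.4 CPM for GJA1 and at 3.67 to 4.18 CPM for MEF2C.

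Among the lineage factors the MEF2 genes were higher with preconditioning+FCCP than with FCCP. MEF2C, which acts early in heart development, was 3.99, 4.18 and 3.67 CPM with preconditioning+FCCP. It was 0.916, 0.728 and 0.812 in control, 1.80, 0.526 and 0.621 with FCCP and 0.747, 1.08, 0.769 and 1.14 with preconditioning. The 3 preconditioning+FCCP libraries lay above the other 10, with FCCP 1 the nearest. MEF2C rose by 2.00 ± 0.45 on the log2 scale against FCCP (edgeR adjusted p 0.00378) and by 2.07 ± 0.41 against preconditioning (edgeR adjusted p 0.00115).

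Both MEF2C calls held without each library in turn, and the values within sets were 1.88 against FCCP (edgeR adjusted p 0.17) and 2.12 against preconditioning (edgeR adjusted p 8.47e-05). The interaction for MEF2C, 1.81 ± 0.63, missed the threshold (edgeR adjusted p 0.054). It passed with DESeq2 (1.81, adjusted p 0.0291), with limma-voom (2.03, adjusted p 0.0321) and without FCCP 1 (2.58, edgeR adjusted p 0.00419).

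MEF2A was 53.4, 52.9 and 57.2 CPM in control, 55.2, 38.8 and 30.4 with FCCP, 73.2, 75.4, 73.1 and 72.6 with preconditioning, and 102, 87.4 and 72.7 with preconditioning+FCCP. Every preconditioned library, with or without FCCP, exceeded every other library. The log2 change of preconditioning+FCCP against FCCP was 1.07 ± 0.20 (edgeR adjusted p 0.00124). It held without each library in turn and was 0.80 within the higher set (edgeR adjusted p 0.185). Preconditioning against control, 0.43 ± 0.19, was not called (edgeR adjusted p 0.101), nor were FCCP against control, -0.39 ± 0.20, and the interaction, 0.64 ± 0.27. Without FCCP 1 all 3 were called, at 0.43, -0.68 and 0.90. Preconditioning+FCCP against preconditioning, 0.25 ± 0.18, was not called (edgeR adjusted p 0.297), and was within the lower set (0.36, edgeR adjusted p 0.0132).

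MEF2D was 32.4, 34.4 and 50.0 CPM in control, 58.8, 32.3 and 35.7 with FCCP, 63.4, 65.8, 65.1 and 65.2 with preconditioning, and 78.2, 67.8 and 60.8 with preconditioning+FCCP. As for MEF2A, every preconditioned library exceeded every other. MEF2D rose by 0.74 ± 0.21 with preconditioning (edgeR adjusted p 0.0223) and by 0.71 ± 0.22 with preconditioning+FCCP against FCCP (edgeR adjusted p 0.0235). With library set as a term neither was called, at 0.48 and 0.42, and the within-set values were 0.38 and 0.51. The first call ended at 0.62 to 0.73 without control 1, control 2 or preconditioning 2, and the second at 0.51 to 0.69 without FCCP 2 or 3 or preconditioning+FCCP 1 or 2.

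GATA6, a zinc finger factor of the heart, smooth muscle and endoderm, was lower with FCCP. It was 28.0, 32.8 and 22.6 CPM in control, 12.1, 11.6 and 17.9 with FCCP, 22.0, 22.2, 33.9 and 22.4 with preconditioning, and 25.9, 21.4 and 19.1 with preconditioning+FCCP. The 3 FCCP libraries were the lowest of the 13, with preconditioning+FCCP 3 next. GATA6 fell by 1.00 ± 0.24 with FCCP (edgeR adjusted p 0.0373) and was higher by 0.67 ± 0.24 with preconditioning+FCCP than with FCCP (edgeR adjusted p 0.0416). Within the higher set these values were -1.09 and 0.46, neither called. Leaving out control 1 or 2, FCCP 1 or 2, preconditioning 1, 2 or 4, or preconditioning+FCCP 2 ended the first call, at -1.02 to -0.88. The second ended at 0.54 to 0.68 without control 1, FCCP 1 or 2, preconditioning 1, 2 or 4, or preconditioning+FCCP 1 or 2. In GENCODE 29, 14.2% of the exon bases of GATA6 overlap antisense genes. The interaction for GATA6, 0.82 ± 0.33, was not called (edgeR adjusted p 0.0908), and was without control 3 (0.94) or preconditioning 3 (1.00).

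GATA4, the partner of NKX2-5 and TBX5 at heart gene enhancers, had few counts and 1 library far above the rest. Control libraries held 0.515, 6.25 and 0.562 CPM, FCCP libraries 0.0693, 0.197 and 0, preconditioning libraries 0.115, 0.284, 0.414 and 0.208, and preconditioning+FCCP libraries 1.91, 1.64 and 0.0564. Control 2 alone held 103 of the 121 control counts. The FCCP libraries held 4 counts in all and the preconditioning+FCCP libraries 74, of which 1 was in replicate 3. The level in control exceeded that with FCCP 26.7 times, with a 95% counting interval of 10.2 to 99.7 that leaves out the spread between libraries.

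GATA4 was called lower with preconditioning than in control, at a log2 value of -3.23 ± 0.98 (edgeR adjusted p 0.0272). It was called higher with preconditioning+FCCP than with FCCP, at 3.64 ± 1.29 (edgeR adjusted p 0.0379). The interaction was 6.87 ± 1.61 (edgeR adjusted p 0.00909), and FCCP against control was -4.65 ± 1.27 and not called (edgeR adjusted p 0.0554). Without control 2 the preconditioning change was -1.06 (edgeR adjusted p 0.488) and the interaction 4.68, still called. The preconditioning call also ended without preconditioning 1, 2 or 4, with a value no lower than -3.28. The call against FCCP ended at 3.07 to 4.83 without any 1 of FCCP 1 to 3 or preconditioning+FCCP 1 or 2. It turned to -0.61 within the higher set, where preconditioning+FCCP 3 is the only such library, and the preconditioning change within the lower set was -1.12. With limma-voom the interaction was 5.15 (adjusted p 0.0832). FCCP against control passed with DESeq2 (-4.75, adjusted p 0.00442), without control 1 (-5.16) or control 3 (-5.14) and without preconditioning+FCCP 3 (-4.67). Preconditioning+FCCP against preconditioning, 2.22 ± 0.99, was not called (edgeR adjusted p 0.085), and was without control 2 (2.18) or preconditioning+FCCP 3 (2.74), and within the lower set (2.77, edgeR adjusted p 0.000409).

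HAND2, a basic helix-loop-helix factor of the right ventricle and of the sympathetic lineage, was higher with preconditioning+FCCP than with preconditioning. It was 5.61, 4.14 and 3.16 CPM against 2.13, 1.59, 2.66 and 2.13, with 3.09, 2.18 and 3.12 in control and 1.52, 2.96 and 2.90 with FCCP. The 3 preconditioning+FCCP libraries were the highest of the 13, the lowest of them by a small margin. The log2 change was 1.02 ± 0.33 (edgeR adjusted p 0.0248) and 1.19 within the lower set. It was not called, at 0.76 to 1.01, without preconditioning 1, 2 or 4 or preconditioning+FCCP 1 or 2. Antisense HAND2-AS1 overlaps 24.1% of the exon bases of HAND2.

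The remaining lineage factors did not pass the filter on low counts. HAND1, the left ventricle relative of HAND2, had 0 counts in all control and preconditioning libraries, 3 counts with FCCP, all in FCCP 1, and 31 with preconditioning+FCCP. Its preconditioning+FCCP levels were 0.520, 0.779 and 0.169 CPM, and a library of this series at 0 allows up to 0.123 to 0.208 CPM. Without the filter HAND1 was called higher with preconditioning+FCCP than with preconditioning (edgeR adjusted p 0.000783), as it was within the lower set (edgeR adjusted p 0.000989). NKX2-5 was at 0.0573 and 0.243 CPM in control 1 and 2, at 0.0578 in preconditioning+FCCP 1 and at 0 in the other 10 libraries. TBX5 was at 0.114 and 0.0519 CPM in preconditioning 2 and 4, at 0.123 in preconditioning+FCCP 2 and at 0 elsewhere. TBX20, a T-box factor of the heart tube, was 0.517, 0.398, 0.414 and 0.311 CPM with preconditioning and at most 0.375 in the other libraries.

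**Figure D4:**
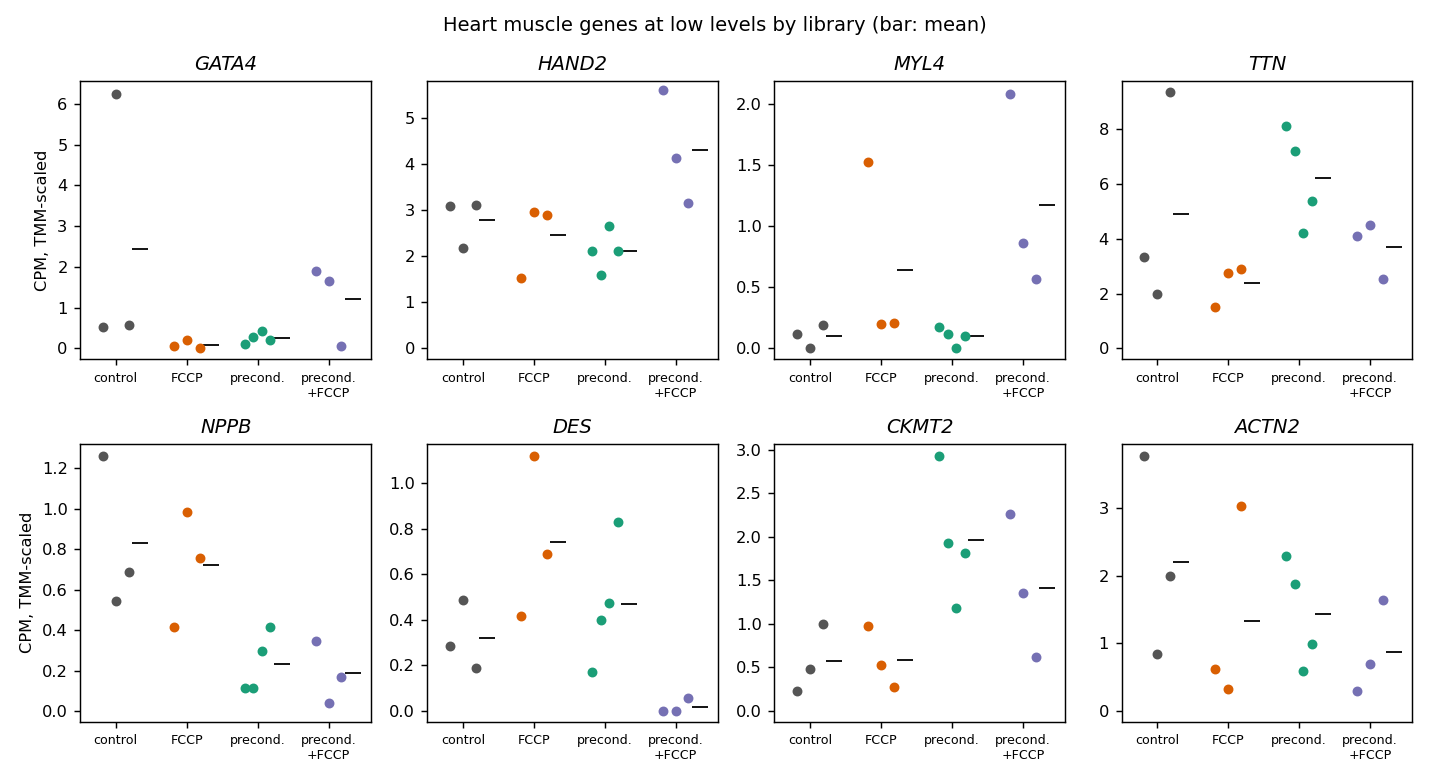
Levels (CPM, linear axes) of 8 genes at low levels, with 1 point per library and a bar for the group mean. Control 2 stands alone at 6.25 CPM for GATA4, and the 3 preconditioning+FCCP libraries hold 1 count of DES between them.

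Of the Z-disc and metabolism genes, DES and CKMT2 changed. DES encodes desmin, the intermediate filament that ties Z-discs together in all muscle types. It was 0.416, 1.12 and 0.690 CPM with FCCP, 0.172, 0.398, 0.473 and 0.831 with preconditioning and 0.286, 0.485 and 0.187 in control. With preconditioning+FCCP it was 0, 0 and 0.0564 CPM, below all other libraries. This is 1 count against 33 with FCCP and 34 with preconditioning, which gives ratios of 44.4 (95% counting interval 7.43 to 1806) and 28.4 (4.76 to 1153).

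The DES calls had edgeR adjusted p-values of 0.00196 against FCCP, 0.00323 against preconditioning and 0.00709 for the interaction. Each held in the 12 fits without 1 library that tested DES, and without preconditioning 4 DES did not pass the filter on low counts. Within the higher set the DES change against FCCP was not called (edgeR adjusted p 0.193), and within the lower set that against preconditioning was (edgeR adjusted p 0.00461). Smooth muscle, which also makes desmin, had 8 of 10 markers at 1 CPM, and DES is itself on that list. Their summed level was 750 to 1634 CPM with preconditioning+FCCP, 1996 to 2541 with FCCP, 1446 to 1879 with preconditioning and 1759 to 2781 in control. Of the 10 markers, DES included, 5 were called lower and 0 higher against FCCP, beside 17.7% and 17.9% of all genes. The part of the other markers in the DES result was not tested.

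CKMT2, the creatine kinase of muscle mitochondria, was higher with preconditioning than in control. It was 2.93, 1.93, 1.18 and 1.82 CPM with preconditioning, 0.229, 0.485 and 1.00 in control, 0.970, 0.526 and 0.276 with FCCP and 2.26, 1.35 and 0.621 with preconditioning+FCCP. Preconditioning did not overlap with control. The log2 change was 1.78 ± 0.60 (edgeR adjusted p 0.0417) and 0.97, not called, within the lower set. It was not called without control 1 or 2, FCCP 2, preconditioning 1, 2 or 4, or preconditioning+FCCP 2, at 1.40 to 1.82. LDB3, a Z-disc protein, peaked at 0.810 CPM, and MB and CSRP3 had 6 and 2 counts.

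NPPB, the B-type natriuretic peptide that a strained ventricle secretes, was low and lower still after preconditioning. It was 1.26, 0.546 and 0.687 CPM in control, 0.416, 0.986 and 0.758 with FCCP, 0.115, 0.114, 0.296 and 0.415 with preconditioning, and 0.347, 0.0410 and 0.169 with preconditioning+FCCP. All 7 preconditioned libraries lay below all 6 others, the nearest of each by a very small margin. NPPB fell by 1.98 ± 0.75 with preconditioning+FCCP against FCCP (edgeR adjusted p 0.0484), and its change with preconditioning, -1.78 ± 0.65, was not called (edgeR adjusted p 0.0581). The call ended, at -2.00 to -1.47, without any 1 of control 2, FCCP 2 or 3, preconditioning 1 to 4, or preconditioning+FCCP 2 or 3, and the value within the higher set was -2.04. NPPA, the atrial peptide, reached at most 0.896 CPM and was not tested.

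A further 117 genes of heart muscle, in 4 lists, give the setting, and 70 of them reached 1 CPM in 3 or more libraries. Of these 117, 72 were tested. Calls among the 72 numbered 4 for FCCP and 18 for preconditioning, each against control. With preconditioning+FCCP they numbered 23 when set against FCCP and 31 when set against preconditioning, and the interaction gave 15. These are 5.56%, 25%, 31.9%, 43.1% and 20.8% of the 72, beside 3.52%, 23.6%, 35.7%, 39.4% and 19% of all genes.

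Other sarcomere and Z-disc genes, 21 of 32 tested, gave 6 lower and 1 higher with preconditioning+FCCP against FCCP, where 17.7% of all genes were lower and 17.9% higher. Against preconditioning 8 were lower and 2 higher, beside 19.2% and 20.2% of all genes. The imbalance itself was not tested. MYPN, the Z-disc protein myopalladin, fell by 3.78 ± 0.45 on the log2 scale against preconditioning (edgeR adjusted p 3.37e-05). TNNT1, slow skeletal troponin T, fell by 1.72 ± 0.30 against FCCP (edgeR adjusted p 0.000875). FHL2, a LIM protein, fell by 1.34 ± 0.24 (edgeR adjusted p 0.000896) and MYL9, a light chain of smooth muscle and non-muscle myosin, by 1.71 ± 0.34 (edgeR adjusted p 0.00166). TPM1, alpha tropomyosin, fell by 1.26 ± 0.26 (edgeR adjusted p 0.00218). The fibroblast and smooth muscle sums given above moved in the same direction, and their part in these changes was not tested. With FCCP against control ANKRD1, a stress-responsive ankyrin repeat protein, fell by 3.48 ± 0.78 (edgeR adjusted p 0.0264), and TCAP, the titin cap, rose by 1.66 ± 0.40 (edgeR adjusted p 0.0359).

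Other channel, calcium handling and junction genes, 15 of 34 tested, gave 4 higher and 2 lower for preconditioning against control, beside 10.5% and 13% of all genes. JPH2, which holds the cell membrane close to the reticulum, rose by 1.04 ± 0.33 with preconditioning (edgeR adjusted p 0.0317) and fell by 2.40 ± 0.37 with preconditioning+FCCP against FCCP (edgeR adjusted p 0.000434). ATP2B4, a calcium pump of the cell membrane, rose by 0.85 ± 0.19 (edgeR adjusted p 0.00638) and fell by 1.07 ± 0.20 (edgeR adjusted p 0.00134) in the same comparisons. ABCC9, a subunit of potassium channels gated by ATP, was the 1 gene higher with preconditioning+FCCP against FCCP, at 2.01 ± 0.63 (edgeR adjusted p 0.0223).

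Other lineage and muscle factors, 20 of 29 tested, gave 6 higher and 2 lower with preconditioning+FCCP against FCCP (17.9% and 17.7% of all genes). Against preconditioning 6 were higher and 5 lower (20.2% and 19.2%), and preconditioning against control gave 3 higher (10.5%). TBX2, a repressor that keeps chamber genes off, rose by 2.02 ± 0.35 against FCCP (edgeR adjusted p 0.000881). TBX18 rose by 0.84 ± 0.17 (edgeR adjusted p 0.00188), SRF, which binds CArG boxes, by 0.96 ± 0.21 (edgeR adjusted p 0.00346) and HEY1, a Notch target, by 3.11 ± 0.77 (edgeR adjusted p 0.00629). With preconditioning alone TEAD1, which binds the M-CAT element, rose by 1.01 ± 0.18 (edgeR adjusted p 0.00263). Among 16 tested metabolism and secreted genes of 22, 1 was higher and 4 were lower with preconditioning+FCCP against FCCP (17.9% and 17.7% of all genes). PDK4, which restrains pyruvate oxidation, rose by 4.69 ± 1.01 (edgeR adjusted p 0.0028), and SLC2A4, the insulin-responsive glucose carrier, fell by 2.91 ± 0.61 (edgeR adjusted p 0.00251).

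The label myocyte was set against defining markers. All 12 cardiomyocyte markers are among the 38 genes, so they restate the levels above. Of these 12, 3 reached 1 CPM, and their summed level was 3.19 to 11.9 CPM over the 13 libraries. Skeletal muscle markers had 1 of 13 at 1 CPM, immune markers 2 of 10, endothelial 5 of 10, smooth muscle 8 of 10 and epicardial 7 of 8, beside 18 of 18 for fibroblasts. By these counts most defining transcripts of contracting heart muscle were at or near 0. The fibroblast list and most of the smooth muscle and epicardial lists were present, beside the calcium pump, connexin 43, GATA6, HAND2, MEF2A and MEF2D. MEF2C was low, at 1 CPM in 6 libraries, with medians of 0.916 CPM and 0.0779 CPM per kilobase.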

How the data were processed

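The authors deposited 1 table of raw counts per library, with 63241 genes by Ensembl ID. Per the submitters' processing notes the tools were HISAT2 and HTSeq with genome build hg19, and versions and annotation are not given in the sources used here. Per the labels' protocols cDNA was made with random hexamers from RNA bound to poly-T beads, and the strand setting is not settled. Summary rows without a gene did not enter totals: no feature and ambiguous reads are 2.13% to 5.20% and 11.0% to 12.4% of reads. Ensembl IDs were paired with symbols through a name table that matched 62666 of 63241 IDs, and exon lengths came from GENCODE 29. The members and gene lists were chosen with earlier results of these data known. From the counts, edgeR 4.0.16 (R 4.3.3) gave TMM-scaled CPM and quasi-likelihood tests after its low-count filter, in 1 fit of 4 groups and 13 libraries. SE is the log2 change over the root of F. Every called gene is named with all its values, as are 11 genes fixed by name, and other heart genes are named by smallest adjusted p. Alternatives used DESeq2 1.42.0 and limma 3.58.1 (voom). The pipeline was tested on simulated data. No pair of replicates agreed within sampling noise, with a chi-square per degree of freedom of 3.21 or more. Intervals and limits for 0 counts (3 counts) cover counting error only. Group treatments came from the labels. Promoter windows came from RefSeq, and 10 genes without one are not shown.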

Additional observations from a re-analysis of the deposited data

Results flagged for a closer look

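The preconditioning 3 library had 33.9 CPM of GATA6, far above the other 3 libraries of its group. Chance flags about 1 in 20 groups by this measure, and the preconditioning groups of all 18 tested genes were screened. The change with FCCP differed between cells with and without preconditioning for 3 of the 18 genes tested, by the interaction test, beside 19% of all genes. The difference was -2.79 on the log2 scale for GJA1, -5.50 for DES and 6.87 for GATA4. The DES value depends on 1 count in the preconditioning+FCCP libraries, and the GATA4 value on control 2 in part (4.68 without it).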

How the results depend on the processing

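Of the 24 calls of single genes, 9 held without each library in turn, and the 3 calls of DES held in the 12 such fits that tested it. Counts of members called are given with the percentage of all genes called in the same fit. For FCCP against control (2, 3.52%) they were 0 with library totals alone (2.36%), 1 with limma-voom (2.28%), 0 with the compared groups alone (0.111%), 4 without control 3, FCCP 1 and preconditioning+FCCP 3 together (18.1%), 0 at an adjusted p under 0.01 (0.137%), 1 with the length and GC trend taken out (2.2%) and 0 within the higher-share set (0.174%). For preconditioning against control (4, 23.6%) they were 0 once set membership was a term (2.74%), 10 without those 3 libraries (48.9%), 0 at an adjusted p under 0.01 (8.5%) and 0 within the lower-share set (19.9%). For preconditioning+FCCP against FCCP (9, 35.7%) they were 3 with the compared groups alone (27.8%), 4 with the set as a term (21.7%), 4 at an adjusted p under 0.01 (18.9%) and 0 within the higher-share set (0.0168%), where GATA4 reversed to -0.61. Against preconditioning (6, 39.4%) they were 11 within the lower-share set (52%). The interaction (3, 19%) gave 6 without the 3 libraries (37.3%) and 5 with the length and GC trend taken out (18.8%). The 3 libraries left out together were the least like the others of their groups by chi-square per degree of freedom. It was 144 to 159 for control 3, 75.7 to 98.1 for FCCP 1 and 84.6 to 118 for preconditioning+FCCP 3. The pairs kept in these groups had 21.2, 21.5 and 27.3. That fit thus keeps the more alike libraries, which favours more calls. Fits within sets and the length and GC trend were chosen after seeing the data. The causes were not tested. Leaving out 1 library gave 0 to 3, 0 to 6, 4 to 9, 4 to 8 and 2 to 5 calls in the same order, and 13 to 14 genes at 1 CPM. At 1 CPM in all 13 libraries 9 genes remained.

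Replicate numbers are shared between groups, but nothing says they pair libraries. Of 18 same-numbered pairs 1 had a correlation of deviations over 0.1 (-0.20 to 0.16, median -0.06), against 13 of 45 differently numbered pairs. With the replicate block, 0 genes were called for FCCP against control (0.316% of all genes) and 0 for preconditioning against control (11%), and the other counts stayed within 1.5 times. Preconditioning 4 has no partner. Of the 38 genes, 20 did not pass the filter on low counts. Without it 37 were tested, and HAND1 was the only one of the 20 called, with preconditioning+FCCP against preconditioning.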
